A study of Arabidopsis thaliana with 6 samples.

Results

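The genes described here belong to families of ion and nutrient transporters and channels of Arabidopsis thaliana. They were chosen by name from 11 symbol prefixes (NRT, PHT, AMT, SULTR, ZIP, KUP, HAK, CHX, NHX, CNGC and GLR, each followed by a number), among probe sets for which the annotation of the ATH1 array lists a single gene. Of 13350 genes with such a probe set, 16 met the rule. They were 7 glutamate receptor-like channel genes (GLR), 6 cation/proton exchanger genes (CHX), 2 genes of the ZRT/IRT-like zinc transporter family (ZIP) and 1 nitrate transporter gene (NRT). The other 7 prefixes had 0 members, so phosphate, ammonium, sulfate, KUP/HAK potassium, NHX sodium and cyclic nucleotide-gated channel genes were not analysed here. A semicolon in the symbol field was read as several genes, so a gene whose own symbol holds a semicolon could not meet the rule. The absence of a family here therefore does not show that the array lacks it. Each of the 16 genes was read by 1 probe set, and none of these probe sets was of the _s_at or _x_at type, which can match several transcripts. The label of the gene group therefore holds for 4 families, and mostly for GLR and CHX genes.

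RNA came from whole, untreated 7-day-old Col-0 seedlings grown on agar with sucrose and collected at midday, in 3 groups of 2 biological replicates with 1 array each. The 35:SUB1A and 35:SUB1C seedlings expressed the FLAG-tagged rice ethylene response factors SUB1A and SUB1C from the constitutive 35S promoter, and the third group was untransformed wild type (WT). The labels do not say how many transformants each transgenic group represents and name no empty-vector seedlings, so effects of a transgene and other differences between the lines cannot be told apart. Values are log2 probe-set summaries made by the authors with RMA, and changes are differences of group means on that scale, each given with its standard error (SE) from limma, n = 2 arrays a group.

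Plants take up mineral nutrients as ions, and families of membrane proteins move them into root cells, between organs and into vacuoles and other compartments. GLR proteins are cation channels related to animal glutamate receptors and are known for calcium signals, among them those that spread from wounds. CHX proteins exchange potassium or sodium for protons at the plasma membrane and at inner membranes, many of them in pollen, while ZIP proteins carry zinc and other divalent metals into the cytosol, and NRT2 proteins take up nitrate with high affinity.

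Arrays of a group correlated at 0.998 to 0.999 over all tested probe sets, and arrays of different groups at 0.989 to 0.996. Lowest values lay between 3.76 and 3.85 on the 6 arrays, and means under 5 are read here as near background, since the table has no detection calls. Among marker genes, PYK10 of root and hypocotyl had values of 14.05 to 14.20 and LHCB4.1 of green tissue 14.65 to 14.71 over the 6 arrays. PYK10 was the only 1 of 9 listed root endodermis and stele markers measured, and it does not separate root from hypocotyl. A second green tissue marker, LHCB4.2, fell by 0.35 ± 0.07 in 35:SUB1A against WT (adjusted p = 0.0112), which ended without SUB1A replicate 1 or WT replicate 1 (adjusted p of up to 0.0776). In bulk seedlings, fewer cells of a type and less RNA per cell cannot be told apart. Only 2 of 14 listed root hair markers were measured, and both were highest in the 35:SUB1C seedlings. Their summed level was 8.78 to 8.80 in 35:SUB1A, 9.18 to 9.35 in 35:SUB1C and 8.42 to 8.57 in WT seedlings. The 3 of 7 measured stomatal lineage markers (FAMA, listed as FMA, with SPCH and MUTE) summed to 8.35 to 8.38 in 35:SUB1A, 8.59 to 8.66 in 35:SUB1C and 8.88 to 8.93 in WT seedlings, and no pollen marker was measured.

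Of the 16 transporter genes, 5 passed an adjusted p of 0.05 in at least 1 of the 3 comparisons (GLR1.4, GLR2.8, GLR3.5, CHX20 and ZIP9) and 11 in none. GLR1.4 passed in 2 comparisons, and 0 genes passed against WT in both transgenic groups. Of the 5, GLR2.8, GLR3.5 and CHX20 changed in the same direction against WT in both groups, and GLR1.4 and ZIP9 in opposite directions. The largest absolute log2 change of the 11 others was 0.24. Of all probe sets, 20.2% passed in SUB1A against WT, 4.71% in SUB1C against WT and 12.1% in SUB1A against SUB1C. The shares of all probe sets that passed in at least 1 comparison, in 2 comparisons, or against WT in both transgenic groups were not counted. Whether the counts among the 16 genes are more or less than these shares was therefore not tested. The median SD between replicates of a group was 0.0708 over the 16 genes, and the largest was 0.30, for GLR2.7 in WT.

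**Figure D1:**
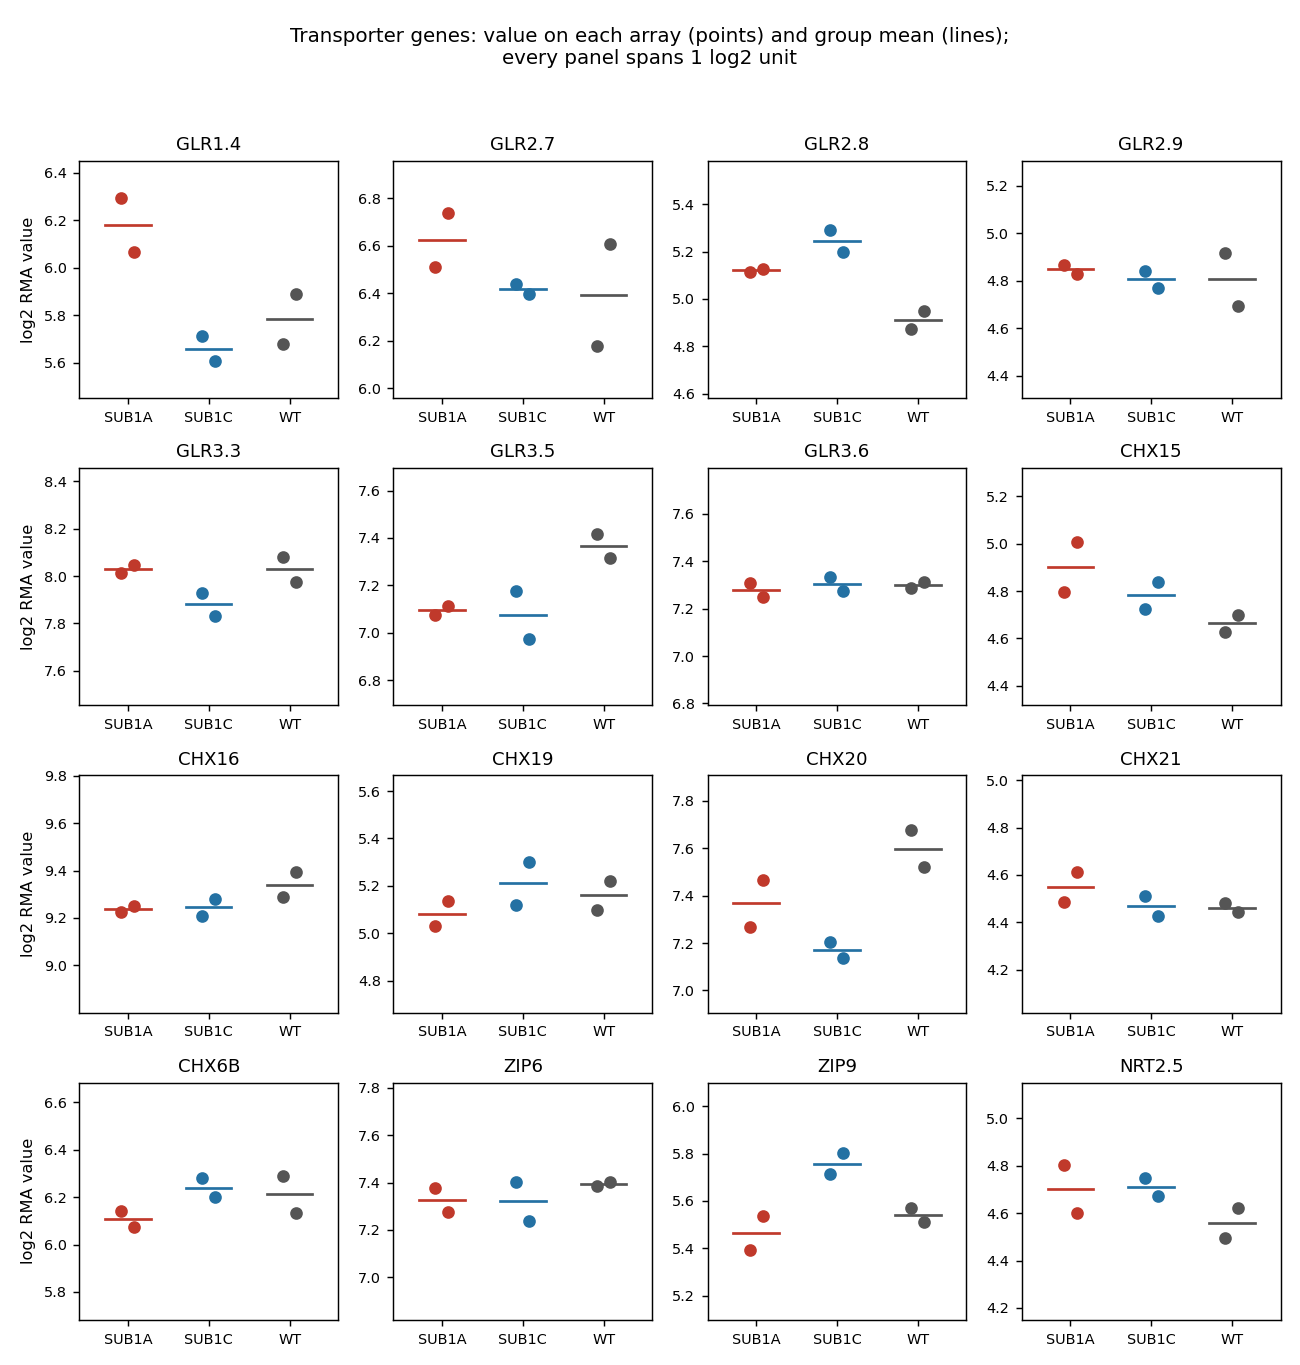
Log2 RMA value of each of the 16 transporter genes (vertical axis, 1 log2 unit in every panel) on the 2 arrays of the SUB1A, SUB1C and WT groups (points), with the group mean as a line. The SUB1A points of GLR1.4 lie above the other 4, the SUB1C points of CHX20 lie below the other 4, and the WT points of GLR3.5 lie above the other 4.

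The comparison of 35:SUB1A with WT seedlings asked which transporter transcripts differed in the untreated SUB1A line. GLR1.4 rose and GLR3.5 fell, making 1 of 16 higher and 1 of 16 lower, or 12.5% called, where 20.2% of all 22746 tested probe sets were called, 9.47% higher and 10.8% lower. The share of transporter genes was thus not above the background. An unadjusted p under 0.05 was reached by 5 of the 16, against 32.7% of all probe sets. Among probe sets with a mean of at least 5, 2 of 12 transporter genes were called, against 23.3% of all. The SUB1A and WT arrays did not overlap for 8 of the 16, or 50%, against 59.2% of all probe sets. The median change was -0.01 for the 16 genes and 0.01 for all probe sets, and the median absolute change was 0.10 against 0.11.

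In the comparison of 35:SUB1C with WT seedlings GLR2.8 rose and CHX20 fell. Again 12.5% of the genes were called, against 4.71% of all probe sets, 2.84% of which rose and 1.87% of which fell, but with 16 genes this rests on 2 calls. An unadjusted p under 0.05 was reached by 4 of the 16, against 20.6% of all probe sets. At a mean of at least 5, 2 of 12 genes were called, against 5.51% of all probe sets. Arrays did not overlap for 8 of 16 genes, or 50%, against 51.2% of all probe sets. The median change was 0.01 for the 16 genes and 0.00 for all probe sets, and the median absolute change was 0.11 against 0.08. Both comparisons used the same WT arrays, so they are not independent.

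Between the lines, GLR1.4 was higher and ZIP9 lower in 35:SUB1A than in 35:SUB1C seedlings, 12.5% of the genes against 12.1% of all probe sets (5.57% higher and 6.48% lower). At a mean of at least 5, 2 of 12 genes were called, against 13.9% of all probe sets. The arrays of the lines did not overlap for 7 of 16 genes, or 43.8%, against 57.9% of all probe sets. The median change was 0.01 for the 16 genes and 0.01 for all probe sets, and the median absolute change was 0.12 against 0.09. An unadjusted p under 0.05 was reached by the same 2 of the 16, against 26.4% of all probe sets.

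**Figure D2:**
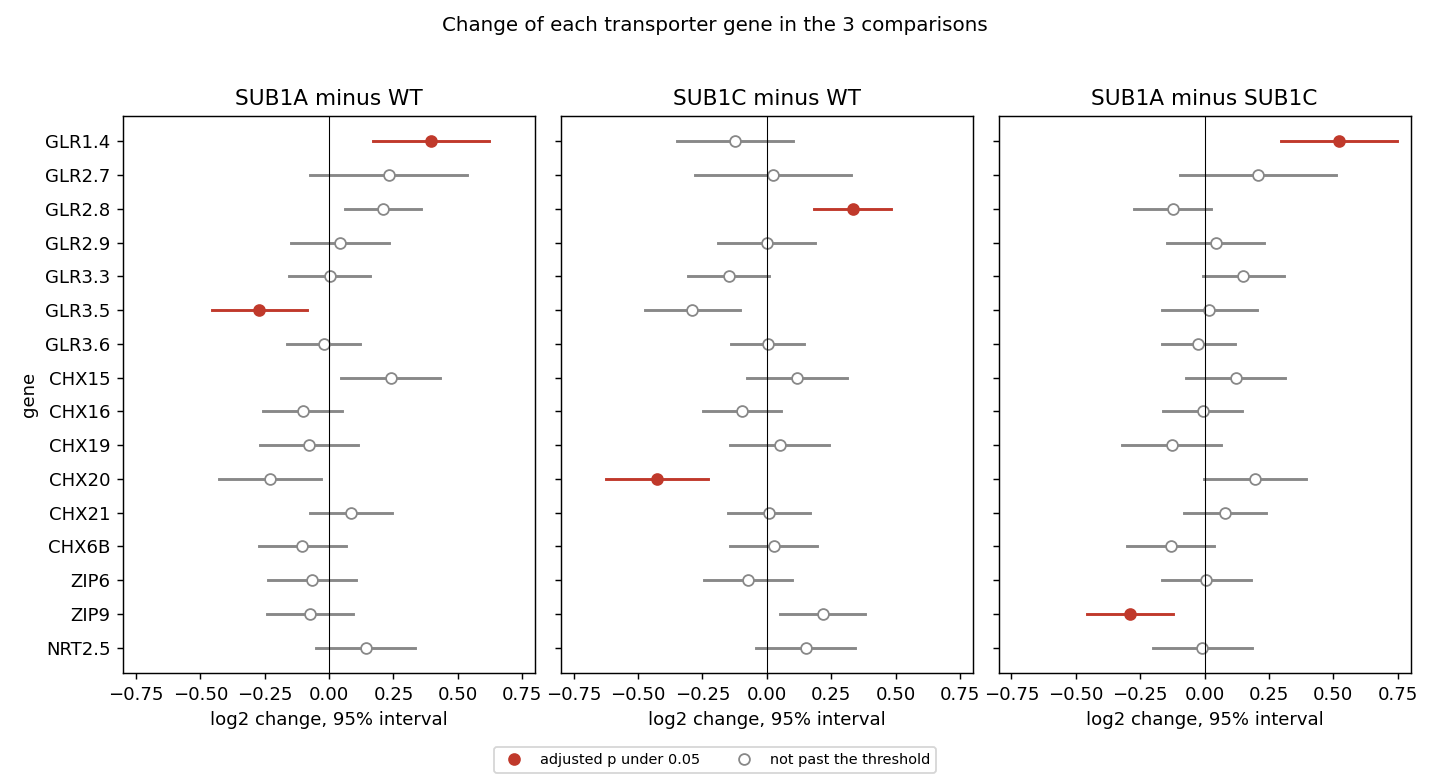
Log2 change of each transporter gene (horizontal axis) with its 95% interval from limma in the 3 comparisons, with filled red points where the adjusted p was under 0.05. The filled points are GLR1.4 at 0.40 and GLR3.5 at -0.27 in SUB1A minus WT, GLR2.8 at 0.33 and CHX20 at -0.43 in SUB1C minus WT, and GLR1.4 at 0.52 and ZIP9 at -0.29 in SUB1A minus SUB1C.

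Among the GLR genes, GLR1.4 (AT3G07520), a calcium-permeable channel opened by methionine and other amino acids when expressed in frog oocytes, was the only gene of the 16 called in the SUB1A line against both other groups. It had values of 6.29 and 6.07 in 35:SUB1A, 5.71 and 5.61 in 35:SUB1C, and 5.68 and 5.89 in WT seedlings. Both SUB1A arrays were above all others, while the SUB1C and WT arrays overlapped. GLR1.4 rose by 0.40 ± 0.10 (SE) in 35:SUB1A against WT, a 1.32-fold difference with adjusted p = 0.0235, and was higher than in 35:SUB1C by 0.52 ± 0.10, or 1.44-fold, with adjusted p = 0.0113. In 35:SUB1C against WT it changed by -0.13 ± 0.10 with adjusted p = 0.536. The call against WT ended without SUB1A replicate 1 (0.28, adjusted p = 0.141) and without WT replicate 1 (0.29, adjusted p = 0.136). The call between the lines ended without SUB1A replicate 1 (0.41, adjusted p = 0.0729), without SUB1C replicate 1 (0.57, adjusted p = 0.0513) and without SUB1C replicate 2 (0.47, adjusted p = 0.0902).

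GLR3.5 (AT2G32390), a channel described in mitochondria and chloroplasts and in calcium signalling during seed germination, was lower in both transgenic groups, past the threshold in 35:SUB1A alone. Its values were 7.08 and 7.11 in 35:SUB1A, 7.18 and 6.97 in 35:SUB1C, and 7.41 and 7.31 in WT seedlings, so all 4 transgenic arrays lay below both WT arrays. It fell by 0.27 ± 0.08 in 35:SUB1A against WT, with adjusted p = 0.0484. The change in 35:SUB1C was -0.29 ± 0.08 with adjusted p = 0.0848, and the difference between the lines was 0.02 with a 95% interval of -0.17 to 0.20. A larger change thus missed the threshold in 35:SUB1C, where fewer probe sets were called overall. The SUB1A call lay close to the threshold and ended without any 1 of the 4 SUB1A and WT arrays, with changes of -0.32 to -0.22 and adjusted p of 0.0692 to 0.203. It also ended with renewed quantile normalization (adjusted p = 0.0553), with each array centred on its median (0.0552) and with trended moderation (0.0607).

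GLR2.7, GLR2.8 and GLR2.9 (AT2G29120, AT2G29110 and AT2G29100), known together for the calcium influx set off by microbial patterns, are immediate neighbours on chromosome 2 in the TAIR10.1 gene order of RefSeq, with 0 protein-coding genes between them. GLR2.8 read 5.12 and 5.13 in 35:SUB1A, 5.29 and 5.20 in 35:SUB1C, and 4.87 and 4.95 in WT seedlings, so the 4 transgenic arrays were above both WT arrays and the SUB1C arrays were highest. It rose by 0.33 ± 0.07 in 35:SUB1C against WT, or 1.26-fold, with adjusted p = 0.0282. In 35:SUB1A it changed by 0.21 ± 0.07 with adjusted p = 0.0549, and the difference between the lines was -0.12, with a 95% interval of -0.27 to 0.03. The SUB1A change passed with each array centred on its median (adjusted p = 0.0448) and when probe sets with means under 5 were left out (adjusted p = 0.0497). Its WT mean of 4.91 is near background, where changes can be compressed. The SUB1C call ended without any 1 of the 4 SUB1C and WT arrays, with changes of 0.29 to 0.38 and adjusted p of 0.0590 to 0.221.

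The neighbours of GLR2.8 did not pass in any comparison. GLR2.7 read 6.51 and 6.74 in 35:SUB1A, 6.44 and 6.40 in 35:SUB1C, and 6.18 and 6.61 in WT seedlings. Its WT arrays lay on both sides of the SUB1C arrays, and its 95% intervals were wide, at -0.07 to 0.53 for 35:SUB1A and -0.28 to 0.33 for 35:SUB1C against WT. GLR2.7 passed against WT in 35:SUB1A when WT replicate 2 was left out. GLR2.9 had a mean under 5 in all 3 groups, with changes of 0.04 ± 0.08 in 35:SUB1A and 0.00 ± 0.08 in 35:SUB1C. Adjacent genes of this group thus gave different calls, although the differences between the genes' changes were not tested.

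GLR3.3 and GLR3.6, known for the electrical and calcium signals that travel from wounded leaves, did not pass. GLR3.6 had values between 7.25 and 7.33 on all 6 arrays, with changes of -0.02 ± 0.06 in 35:SUB1A and 0.00 ± 0.06 in 35:SUB1C against WT. GLR3.3 read 8.01 and 8.05 in 35:SUB1A, 7.93 and 7.83 in 35:SUB1C, and 8.08 and 7.98 in WT seedlings. Its SUB1C arrays were the lowest, with a change of -0.15 ± 0.07 and adjusted p = 0.273. Over the family, 1 of 7 GLR genes rose and 1 fell in 35:SUB1A, 1 rose and 0 fell in 35:SUB1C, and 1 was higher and 0 lower in 35:SUB1A than in 35:SUB1C. Of all probe sets, 9.47% rose and 10.8% fell in 35:SUB1A, and 2.84% rose and 1.87% fell in 35:SUB1C. Between the lines 5.57% were higher and 6.48% lower in 35:SUB1A.

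Among the CHX genes, CHX20 (AT3G53720), an exchanger of guard cell inner membranes known for potassium and pH balance during stomatal opening, was the only called gene. It read 7.27 and 7.47 in 35:SUB1A, 7.21 and 7.14 in 35:SUB1C, and 7.68 and 7.52 in WT seedlings. The SUB1C arrays were lowest and the WT arrays highest, with the SUB1A arrays between them and without overlap. CHX20 fell by 0.43 ± 0.09 in 35:SUB1C against WT, 1.34-fold lower, with adjusted p = 0.0326. In 35:SUB1A it changed by -0.23 ± 0.09 with adjusted p = 0.103, and the difference between the lines was 0.20 with a 95% interval of -0.00169 to 0.40 and adjusted p = 0.193. The SUB1C call ended without any 1 of the 4 SUB1C and WT arrays, with changes of -0.50 to -0.35 and adjusted p of 0.0526 to 0.161.

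CHX20 is known from guard cells, and some markers of the stomatal lineage differed between the groups. SPCH, which starts the lineage, fell by 0.60 ± 0.07 in 35:SUB1A (adjusted p = 0.000635) and by 0.33 ± 0.07 in 35:SUB1C (adjusted p = 0.0328) against WT, and the SUB1C call ended without any 1 of the SUB1C and WT arrays (adjusted p of up to 0.170). FAMA (FMA in the probe table), needed for guard cell identity, fell by 0.61 ± 0.07 in 35:SUB1A (adjusted p = 0.000781) and changed by -0.25 ± 0.07 in 35:SUB1C (adjusted p = 0.0934). MUTE changed by 0.01 ± 0.09 and -0.20 ± 0.09 without passing. Between the lines, SPCH and FAMA were lower in 35:SUB1A than in 35:SUB1C, by 0.27 and 0.36 (adjusted p = 0.0389 and 0.0145). MUTE was higher in 35:SUB1A by 0.21 without passing (adjusted p = 0.188). CHX20 and MUTE had their lowest means in 35:SUB1C, and the CHX20 difference between the lines was not called either. The FAMA call between the lines ended without SUB1A replicate 2 or either SUB1C replicate (adjusted p of up to 0.111). The SPCH call ended without any 1 of the SUB1A and SUB1C arrays (adjusted p of up to 0.218), with a replicate block and with trended moderation (up to 0.0540). Their part in the CHX20 result was not tested.

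The other 5 CHX genes passed in no comparison. CHX15 had the largest change of the family in 35:SUB1A, with 4.80 and 5.01 in 35:SUB1A, 4.73 and 4.84 in 35:SUB1C, and 4.63 and 4.70 in WT seedlings. All 4 transgenic arrays were above both WT arrays, all group means were under 5, and the change of 0.24 ± 0.08 in 35:SUB1A had adjusted p = 0.0833. CHX15 passed with a replicate block (adjusted p = 0.0440) and without SUB1A replicate 1 (0.34, adjusted p = 0.0446). CHX16, an exchanger of the clade known for potassium and pH balance of inner membranes, read 9.22 and 9.25 in 35:SUB1A, 9.21 and 9.28 in 35:SUB1C, and 9.29 and 9.39 in WT seedlings. Its transgenic arrays were below both WT arrays by a small margin, with changes of -0.10 ± 0.07 in each line.

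CHX21, described in root endodermis and in pollen tube growth, had changes of 0.09 ± 0.07 in 35:SUB1A and 0.01 ± 0.07 in 35:SUB1C, at group means under 5. CHX19 changed by -0.08 ± 0.08 and 0.05 ± 0.08, and CHX6B by -0.10 ± 0.07 and 0.03 ± 0.07, with arrays of each line and of WT that overlapped. Over the family, 0 of 6 CHX genes passed in 35:SUB1A, 0 rose and 1 fell in 35:SUB1C, and 0 passed between the lines. Of all probe sets, 20.2%, 4.71% and 12.1% passed in these comparisons. In limma an unadjusted p under 0.05 was reached by 2 of the 6 in 35:SUB1A against WT, where 32.7% of all probe sets reached it, by 1 in 35:SUB1C against WT (20.6% of all) and by 0 between the lines (26.4% of all).

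Of the 2 ZIP genes, ZIP9 (AT4G33020), known to be induced by zinc deficiency, differed between the transgenic lines and in neither against WT. It had 5.40 and 5.54 in 35:SUB1A, 5.71 and 5.80 in 35:SUB1C, and 5.57 and 5.51 in WT seedlings. The SUB1C arrays were above the other 4, and the SUB1A and WT arrays overlapped. ZIP9 was lower in 35:SUB1A than in 35:SUB1C by a log2 change of -0.29 ± 0.07, 1.22-fold, with adjusted p = 0.0359. Against WT the changes were -0.07 ± 0.07 in 35:SUB1A (adjusted p = 0.538) and 0.22 ± 0.07 in 35:SUB1C (adjusted p = 0.137). The call ended without SUB1A replicate 1 (-0.22, adjusted p = 0.195), without SUB1C replicate 1 (-0.34, adjusted p = 0.102) and without SUB1C replicate 2 (-0.25, adjusted p = 0.208).

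EXPA7 and EXPA18, expansins of root hair cells, differed among all 3 groups. Against WT, EXPA7 rose by 0.29 ± 0.08 in 35:SUB1A (adjusted p = 0.0361) and by 0.78 ± 0.08 in 35:SUB1C (adjusted p = 0.00239), and EXPA18 by 0.29 ± 0.08 and 0.75 ± 0.08 (adjusted p = 0.0342 and 0.00264). The SUB1A calls ended without either SUB1A replicate or without WT replicate 2, and for EXPA18 also without WT replicate 1 (adjusted p of up to 0.154). Both genes were lower in 35:SUB1A than in 35:SUB1C by 0.49 ± 0.08 and 0.46 ± 0.08 (adjusted p = 0.00667 and 0.00797), and these calls ended without SUB1C replicate 1 and, for EXPA18, without SUB1A replicate 1, with adjusted p of up to 0.0684. PYK10, of root and hypocotyl, differed by 0.02 ± 0.06. The part of root hair cells in the ZIP9 result was not tested. ZIP6, a family member whose role is less well described, read 7.38 and 7.28 in 35:SUB1A, 7.40 and 7.24 in 35:SUB1C, and 7.39 and 7.40 in WT seedlings. Its changes against WT were -0.07 ± 0.08 in each line.

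NRT2.5 (AT1G12940), a high-affinity nitrate transporter known from nitrogen-starved plants, stayed near background in all groups. It read 4.80 and 4.60 in 35:SUB1A, 4.75 and 4.67 in 35:SUB1C, and 4.50 and 4.62 in WT seedlings. The changes against WT were 0.14 ± 0.08 in 35:SUB1A (95% interval -0.05 to 0.33) and 0.15 ± 0.08 in 35:SUB1C (-0.04 to 0.34), neither past the threshold. At this level the array limits what can be said of the transcript, and a change could be compressed.

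**Figure D3:**
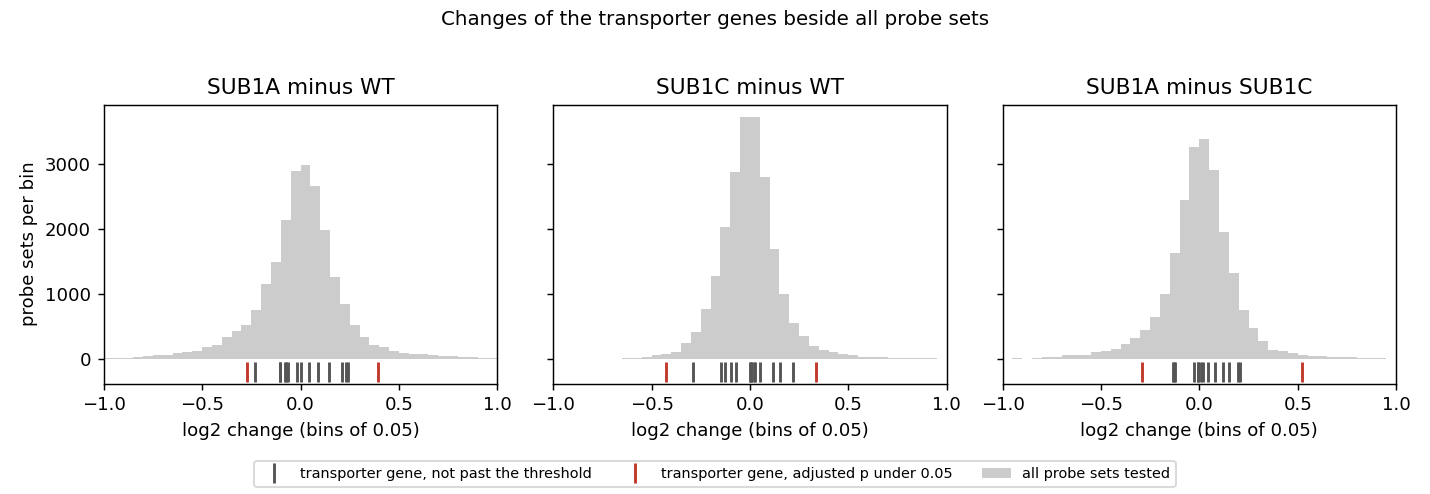
Number of tested probe sets (vertical axis) by log2 change in bins of 0.05 (grey bars), with ticks below for the 16 transporter genes, red where the adjusted p was under 0.05. The transporter ticks lie between -0.27 and 0.40 in SUB1A minus WT, -0.43 and 0.33 in SUB1C minus WT, and -0.29 and 0.52 in SUB1A minus SUB1C, and the axis leaves out 286, 46 and 193 probe sets with changes of at least 1.

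The intervals of the genes that did not pass show which changes in array signal these data leave possible, and for the 4 genes with means under 5 they do not bound the change of the transcript. In 35:SUB1A against WT the 95% intervals of the 14 uncalled genes lay between -0.43 (CHX20) and 0.53 (GLR2.7). In 35:SUB1C against WT those of the 14 uncalled genes lay between -0.47 (GLR3.5) and 0.38 (ZIP9), and between the lines between -0.32 (CHX19) and 0.51 (GLR2.7). Over all 16 genes and the 3 comparisons, the lowest bound was -0.62, for CHX20 in 35:SUB1C against WT, and the highest 0.75, for GLR1.4 between the lines.

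Other genes of mineral nutrition came from 7 lists with 179 genes, of which 10 were matched by symbol or synonym to a single-gene probe set. None of the 25 nitrogen, 21 phosphate starvation, 26 potassium or 22 calcium genes was among them. Probe sets with no listed gene, or with a semicolon in the symbol, could not be matched, so the array may still hold these genes. Of the sulfur assimilation list 5 of 25 were measured, with 0 higher and 1 lower in 35:SUB1A against WT, 0 and 2 in 35:SUB1C against WT, and 0 and 1 between the lines. Over all probe sets 20.2%, 4.71% and 12.1% were called in these comparisons. The median change of these 5 was -0.16, -0.26 and 0.08 in the 3 comparisons.

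BGLU28, a beta-glucosidase gene known for its response to sulfur deficiency, read 5.61 and 5.79 in 35:SUB1A, 5.53 and 5.33 in 35:SUB1C, and 6.88 and 6.18 in WT seedlings, with its WT arrays far apart. It fell by 0.83 ± 0.19 in 35:SUB1A, 1.78-fold lower than in WT (adjusted p = 0.0169), and was 2.14-fold lower than in WT in 35:SUB1C (adjusted p = 0.0176). Without 1 array the SUB1A change lay between -1.18 (without WT replicate 2) and -0.49 (without WT replicate 1), and the SUB1C change between -1.45 and -0.75. The first call ended without SUB1A replicate 1 (adjusted p = 0.0969), and the other without SUB1C replicate 1 or 2 (adjusted p of up to 0.107). APS3, an ATP sulfurylase gene of sulfate activation, fell by 0.33 ± 0.06 in 35:SUB1C (adjusted p = 0.0224), a call that ended without any 1 of the SUB1C and WT arrays (adjusted p of up to 0.169). APS4, of the same enzyme family, was lower in 35:SUB1A than in 35:SUB1C by 0.26 ± 0.06 (adjusted p = 0.0331). This call ended without any 1 of the SUB1A and SUB1C arrays, with changes of -0.30 to -0.21. Against WT, APS4 changed by -0.01 ± 0.06 in 35:SUB1A (adjusted p = 0.937) and by 0.25 ± 0.06 in 35:SUB1C (adjusted p = 0.0640), neither past the threshold. The adenylylsulfate kinase gene APK1 (APK1A in the probe table) changed by -0.18 ± 0.08 in 35:SUB1A and -0.26 ± 0.08 in 35:SUB1C, and the sulfite reductase gene SIR by 0.01 ± 0.06 and -0.01 ± 0.06, all without passing.

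Of the metal list 2 of 39 genes were measured, the iron deficiency regulators BHLH101 and PYE, and 0 passed in any comparison. PYE changed by 0.14 ± 0.08 in 35:SUB1A and 0.00 ± 0.08 in 35:SUB1C. Of the pumps and exchangers of sodium and protons 3 of 21 were measured, the subunit genes VHA-A1, VHA-A2 and VHA-A3 of the vacuolar-type proton pump that powers exchange at inner membranes, and 0 passed. VHA-A3, of the vacuole, had changes of 0.12 ± 0.06 in 35:SUB1A and 0.15 ± 0.06 in 35:SUB1C, with adjusted p = 0.224 and 0.223.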

How the data were processed

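The deposited table held 22810 probe sets on 6 arrays, of which 64 controls were left out and 22746 tested. Its log2 values were made by the authors with RMA, per the submitters' processing notes, whose version the notes do not state. The platform annotation listed 1 gene for 13513 probe sets, several for 503 and none for 8730. A semicolon in the symbol field counted as several genes, also where it might be part of 1 gene's symbol.

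The 3 groups entered 1 linear model per probe set in limma 3.58.1 (R 4.3.3), moderated by eBayes with 5.37 prior beside 3 residual degrees of freedom. Tests were two-sided, p-values were adjusted by Benjamini and Hochberg's method across the 22746 probe sets, and a gene was called at an adjusted p under 0.05. The number of arrays limits the precision, and p-values rest on 2 biological replicates a group.

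The transporter genes and lists were chosen with earlier results of these data known. The rule for named genes took those past the threshold in any comparison and, in each family, the gene with the largest absolute change in each comparison with WT, which gave 7 genes. The other 9 were named after their values were seen, to account for all 16. List genes and markers were matched by symbol or RefSeq synonym to single-gene probe sets, and only those matched are called measured. Groups share replicate numbers, yet same-numbered arrays did not deviate together (correlations of -0.01 to 0.04), so no pairing was used. Alternatives are given in the closing section. No sequences were used here.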

Additional observations from a re-analysis of the deposited data

Results flagged for a closer look

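The transgenic lines differed from each other in 2 of the 16 transporter genes by the direct test in limma. The SUB1A minus SUB1C change was 0.52 for GLR1.4 and -0.29 for ZIP9, with changes against WT of opposite sign in the lines for both genes (0.40 in 35:SUB1A and -0.13 in 35:SUB1C for GLR1.4, -0.07 and 0.22 for ZIP9). For each gene 1 of the lines overlapped WT, 35:SUB1C for GLR1.4 and 35:SUB1A for ZIP9. With 2 arrays a group no single array could be tested as standing apart.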

How the results depend on the processing

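The count of 2 transporter genes called in each comparison was small, so that 1 call moved it by much. For 35:SUB1A against WT it was 1 with renewed quantile normalization, with trended moderation and with only single-gene probe sets tested, each time GLR1.4. For all 3 comparisons it was 0 at adjusted p 0.01. With a wider name rule, chosen after seeing the data, it was 6 of 29 for 35:SUB1A against WT (20.7%, against 20.2% of all probe sets), 3 of 29 for 35:SUB1C against WT (10.3% against 4.71%) and 5 of 29 between the lines (17.2% against 12.1%). Leaving out 1 array gave 0 to 2 genes in each comparison. A replicate block gave 3, 2 and 2 genes, the third in 35:SUB1A being CHX15, and changed no other call of the 7 genes that the naming rule took (GLR1.4, GLR2.8, GLR3.5, CHX15, CHX20, ZIP9 and NRT2.5). With the block 4473, 1025 and 2625 probe sets were called. Probe sets called over the whole array numbered 4606, 1071 and 2742 in the 3 comparisons, 2344, 296 and 1191 at adjusted p 0.01, and 2318, 588 and 1304 with only the 13513 single-gene probe sets tested. Without 1 array they numbered 2701 to 3961, 191 to 882 and 1078 to 3026. Among the values of those 7 genes under alternatives, 236 kept their sign and their side of the threshold, 23 lost a call, 4 gained one and 4 changed sign. Most of these values belong to comparisons in which the gene was not called to begin with. Leaving out an array of the third group repeats the fit of only the 2 groups compared, so some values stand more than once. The sign changes were those of uncalled differences between the lines, which spanned -0.0834 to 0.121 for GLR3.5 and -0.109 to 0.0926 for NRT2.5 when 1 array was left out. Means under 5, as for GLR2.9, CHX15, CHX21 and NRT2.5, limit what the arrays can show of those genes.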

Other observations

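NRT1 genes, unlike NRT2.5, are known under a second set of names. The wider name rule also searched RefSeq symbols and synonyms for the 11 prefixes. It found 11 genes that RefSeq lists as NPF (NRT1/ PTR family) members, measured under other symbols. NPF genes without such a name were not sought. The genes found were picked out after their values were seen. The family carries nitrate, glucosinolates and hormones between cells and organs. AT2G26690 (NPF6.2), a nitrate transporter of petioles, read 8.85 and 8.98 in 35:SUB1A, 9.86 and 9.85 in 35:SUB1C, and 10.09 and 9.98 in WT seedlings. Its SUB1A arrays were far below the others, by 1.12 ± 0.07 against WT (2.17-fold lower, adjusted p = 3.82e-05) and by 0.94 ± 0.07 against 35:SUB1C (adjusted p = 0.000143), and both calls held without any 1 array. The change in 35:SUB1C against WT was -0.18 ± 0.07 with adjusted p = 0.194.

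GTR2 (NPF2.11), a glucosinolate importer, read 10.67 and 10.73 in 35:SUB1A, 10.21 and 10.26 in 35:SUB1C, and a mean of 10.03 ± 0.04 (SD, n = 2) in WT seedlings. It rose by 0.67 ± 0.06 in 35:SUB1A against WT (adjusted p = 0.000266) and was higher than in 35:SUB1C by 0.46 ± 0.06 (adjusted p = 0.00253), both also without any 1 array, while its relative GTR1 (NPF2.10) changed by 0.17 ± 0.09 without passing. AT3G21670 (NPF6.4) had 10.03 and 10.32 in 35:SUB1A, 10.68 and 10.79 in 35:SUB1C, and 10.79 and 10.54 in WT seedlings. It fell by 0.49 ± 0.11 in 35:SUB1A against WT (adjusted p = 0.0174), which ended without SUB1A replicate 1 or WT replicate 1 (adjusted p of up to 0.111), and was lower than in 35:SUB1C (adjusted p = 0.0147), which ended without SUB1A replicate 1 or either SUB1C replicate (adjusted p of up to 0.105).

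AT1G68570 (NPF3.1) fell by 0.35 ± 0.06 in 35:SUB1C against WT (adjusted p = 0.0220), which ended without any 1 of the SUB1C and WT arrays (adjusted p of up to 0.135). AT3G25260 (NPF4.1) rose by 0.24 ± 0.06 in 35:SUB1A (adjusted p = 0.0314), which ended without any 1 of the 6 arrays (adjusted p of up to 0.154), with only the 2 groups compared, with renewed quantile normalization and with trended moderation. The other 6 of the 11 passed in no comparison, nor did GLR1.2 and CHX28, which the array annotation lists as ATGLR1.2 and chx28. Of all probe sets, 20.2% passed in 35:SUB1A against WT, 4.71% in 35:SUB1C against WT and 12.1% between the lines. Whether NPF genes passed more often than other genes was not tested.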
